A study of Mus musculus with 2 samples.

Results

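Müller glia are the radial glial cells that span the retina. The genes described here are 10 genes listed under homeostasis of these cells: Glul, Slc1a3, Aqp4, Kcnj10, Kcnj2, Apoe, Clu, Abca8a, Dkk3 and Crym. They cover the handling of glutamate, water and potassium, beside other markers. They were found in the deposited table by symbol, each on 1 row, and are 10 of the 47644 genes in it. Expression was measured by RNA sequencing of whole eyeballs from C57BL/6 mice in 1 sample of the oxygen-induced retinopathy model (OIR) and 1 control sample. Pups of the OIR group were moved into high oxygen on day 7 and back to room air 5 days later, and their eyes were collected on day 17. The labels describe the control as C57BL/6 eyeball without a collection day or a statement on oxygen, and give no genetic change in either group. The number of eyes or animals per sample is not stated. The stated purpose of the series is the mechanism of long-lasting visual dysfunction in this model. Because each group is 1 library, no difference below has a replicate check, and no test was made.

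Müller glia take up the glutamate that retinal synapses release and turn it into glutamine, which neurons reuse as the precursor of glutamate and GABA. They also carry the potassium set free by active neurons, together with water, to the vitreous body and the blood vessels. Inwardly rectifying potassium channels and a water channel in the glial endfeet serve this task. In stressed retina these cells become reactive, a state known as gliosis, and switch on the filament gene Gfap. The model makes the retina first lose vessels in high oxygen and then become hypoxic in room air.

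Reads assigned to genes numbered 20378793 in OIR and 15741235 in the control. Ribosomal RNA genes took 0.153% of these reads in OIR, against 0.00791% in the control. A gene was compared where its FPKM (fragments per kilobase of transcript, scaled to the library's reads) was at least 1 in either library, which 15883 genes met, all 10 members among them. The median of these genes stood 0.11 higher in OIR on the log2(FPKM + 1) scale. Other tissues of the eyeball also differed between the libraries. The 15 corneal epithelium markers summed to 1642 FPKM in OIR, against 569 in the control, and the 15 lens markers to 107491 FPKM in OIR and 150374 FPKM in the control. The 15 microglia and macrophage markers summed to 119 FPKM in OIR, against 76.8 in the control, and the 17 rod markers to 22588 FPKM in OIR and 22627 FPKM in the control. None of the cornea, microglia or rod markers was at 0, and Lim2, a lens fibre gene, was listed at 0 in both libraries. The part of these tissues in the differences below was not tested.

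Of the 10 genes, Crym alone was at least 2-fold apart between the libraries. It was higher in OIR, as were 3.07% of all genes compared, and none of the 10 was at least 2-fold lower, against 0.718% of all genes compared. By sign, 3 of the 10 lay above 0 and 7 below, while 64.9% of all genes compared lay above 0 and 35.1% below. The median difference of the 10 was -0.12 on the log2(FPKM + 1) scale, OIR minus control, with single values from -0.79 to 1.48. The 7 genes below 0 in OIR were Glul, Abca8a, Dkk3, Aqp4, Apoe, Kcnj10 and Clu, and the other members, Crym, Slc1a3 and Kcnj2, lay above 0. Rescaling to TPM put Clu above 0, and centring on all genes compared, or within bins of transcript length, put Kcnj2 below 0.

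**Figure D1:**
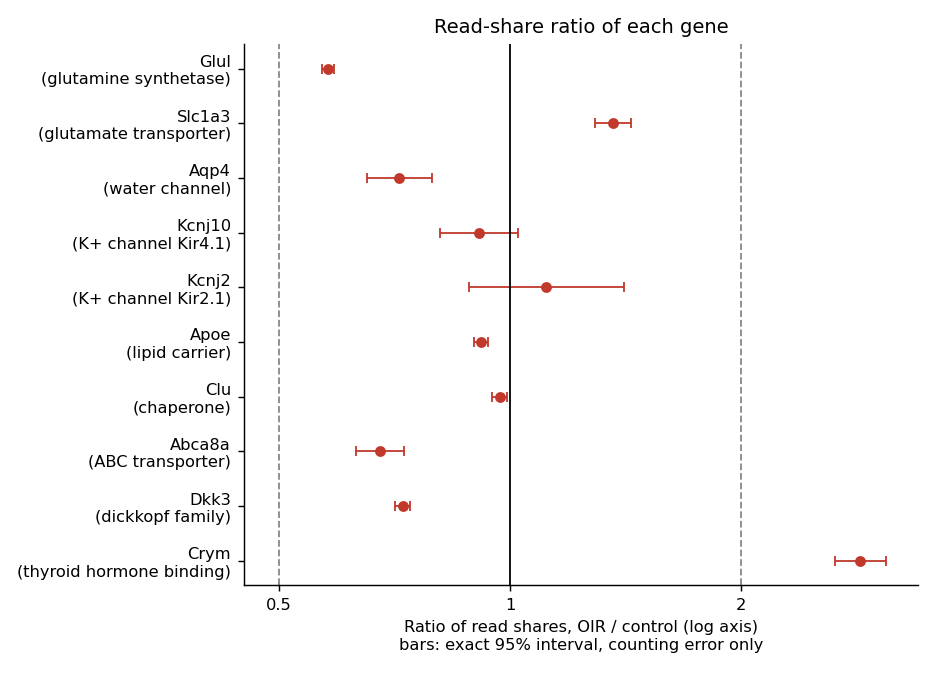
The ratio of read shares, OIR over control, is plotted on a log axis for each of the 10 genes, with exact 95% intervals that cover counting error only. The solid line marks a ratio of 1 and the dashed lines 2-fold; Crym, at 2.86, is the only gene beyond a dashed line, Glul has the lowest ratio, at 0.580, and the intervals of Kcnj10 and Kcnj2 span 1.

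RefSeq promoter windows were used for 6 members, Glul, Kcnj10, Apoe, Abca8a, Kcnj2 and Slc1a3, and no window was used for Aqp4, Clu, Dkk3 or Crym. Of the 4 with a window whose read-share intervals leave out 1, the 3 farthest from 1 are shown, Glul and Abca8a, which were lower in OIR, and Slc1a3, which was higher; Apoe, with 3 windows, is not shown. Each line gives the 250 bases before the RefSeq transcript start (GRCm38.p6, the assembly behind mm10), 5′ to 3′ on the gene's own strand. Capitals mark matches, on either strand, to the hypoxia response core ACGTG, the STAT palindrome TTCNNNGAA or the glucocorticoid receptor half-site AGAACA. The windows are chr1:153899679-153899928 on the plus strand for Glul, chr11:110095938-110096187 on the minus strand for Abca8a and chr15:8710808-8711057 on the minus strand for Slc1a3. The bases that follow the Glul and Abca8a windows were found near the start of a GENCODE M21 transcript, and those that follow the Slc1a3 window were not. The RefSeq start of Slc1a3 lies upstream of the start in the deposited table.
Glul: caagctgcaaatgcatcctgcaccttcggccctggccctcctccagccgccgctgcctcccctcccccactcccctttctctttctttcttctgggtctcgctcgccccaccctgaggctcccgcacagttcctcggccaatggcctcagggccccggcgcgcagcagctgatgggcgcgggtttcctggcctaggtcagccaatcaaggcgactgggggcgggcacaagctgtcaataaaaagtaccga
Abca8a: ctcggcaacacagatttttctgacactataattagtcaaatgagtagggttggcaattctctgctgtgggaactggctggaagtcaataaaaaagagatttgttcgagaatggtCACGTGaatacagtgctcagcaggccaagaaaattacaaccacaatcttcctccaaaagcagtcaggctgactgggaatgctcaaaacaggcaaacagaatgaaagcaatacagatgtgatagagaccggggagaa
Slc1a3: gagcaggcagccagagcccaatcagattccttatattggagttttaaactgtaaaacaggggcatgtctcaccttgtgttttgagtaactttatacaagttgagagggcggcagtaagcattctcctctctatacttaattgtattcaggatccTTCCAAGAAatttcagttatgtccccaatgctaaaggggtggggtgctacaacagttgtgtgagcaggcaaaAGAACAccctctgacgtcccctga
The Glul window held none of the 3 motifs. The Abca8a window held CACGTG, in which a match on each strand to ACGTG overlaps. The Slc1a3 window held 1 STAT palindrome and 1 half-site. Among the windows not shown, that of Kcnj2, whose read-share interval included 1, also held CACGTG. The Kcnj10 window and 1 of the 3 Apoe windows each held 1 half-site. Of all 32851 promoter windows of the same length, 16.6% hold ACGTG, 7.02% the STAT palindrome and 16.1% the half-site. The Glul window had 64.8% G and C bases, against 43.2% for Abca8a, 44.8% for Slc1a3 and a median of 52.4% over all windows. These matches describe letters only, and no binding was measured.

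Glutamate handling split between its 2 main glial genes. Glul encodes glutamine synthetase, which joins ammonia to glutamate to make glutamine. It lies on chromosome 1 from 153899944 to 153909723 on the plus strand (mm10; ENSMUSG00000026473). It had 20082 reads and 1017 FPKM in OIR, against 26746 reads and 1753 FPKM in the control. The OIR level was the lower one, and the ratio of read shares, OIR over control, was 0.580 (exact 95% interval 0.569 to 0.591, counting error only). This is a difference of -0.79 on the log2(FPKM + 1) scale, and 1.23% of all genes compared had a lower one. In bulk tissue, fewer cells of a type and less RNA per cell cannot be told apart, here and for every gene below.

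Slc1a3 encodes GLAST, the main glutamate uptake transporter of Müller glia (ENSMUSG00000005360, chromosome 15, 8634124 to 8710764, minus strand). It had 3673 reads and 105 FPKM in OIR, against 2087 reads and 76.9 FPKM in the control. It was the higher of the libraries in OIR, with a ratio of 1.36 (1.29 to 1.44) and a difference of 0.44. Among all genes compared, 15.3% had a higher difference. Set against each other, there were 5.47 Glul reads per Slc1a3 read in OIR, against 12.8 in the control. This ratio of ratios, which is free of library scaling, was 0.427 (exact 95% interval 0.403 to 0.452).

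As a group, the other genes of the glutamate cycle did not share the Glul value. The intervals of Slc17a6 and Slc1a6, given below, included the Glul ratio of 0.580. Of 19 listed transporters and enzymes, all compared, 10 lay above 0 and 9 below with a median of 0.04, and none was 2-fold apart. The count above 0 ran between 9 and 15 under the alternative scalings and centrings, called alternative scalings from here on. Some other transporters of the same family were also higher in OIR. Slc1a2, which encodes GLT-1, had a ratio of 1.65 (1.57 to 1.73), with 134 FPKM in OIR, against 81.2 in the control. Slc1a1 had a ratio of 1.43 (1.28 to 1.60) and Slc1a7, a transporter of photoreceptors and bipolar cells, 1.48 (1.39 to 1.57). Slc1a6, with 52 reads in OIR, against 66 in the control, went the other way at 0.609 (0.415 to 0.889). The interval of Slc1a5, at 1.10 (0.910 to 1.34), included 1. Slc1a1, Slc1a5 and Slc1a7 are named after their values were seen.

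The largest difference above 0 in this list belonged to Slc1a4, which carries neutral amino acids, at a ratio of 1.99 (1.70 to 2.34). The lowest belonged to Slc17a6, the vesicular glutamate transporter of ganglion cells, at 0.609 (0.546 to 0.678). Slc38a3, which moves glutamine across glial membranes and was chosen after its value was seen, had a ratio of 1.11 (1.07 to 1.14), with 267 FPKM in OIR, against 241 in the control.

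Water and potassium channel genes stood close to or below their control levels. Aqp4 encodes the water channel of the glial endfoot (ENSMUSG00000024411, chromosome 18, 15389394 to 15403684, minus strand). It had 809 reads and 7.81 FPKM in OIR, against 871 reads and 10.9 FPKM in the control. The ratio was 0.717 (0.651 to 0.790), and 5.37% of all genes compared had a lower difference.

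Kcnj10 encodes Kir4.1, the channel that carries most of the potassium conductance of Müller glia (ENSMUSG00000044708, chromosome 1, 172341210 to 172374085, plus strand). It had 633 reads and 5.74 FPKM in OIR, against 537 reads and 6.31 FPKM in the control. The levels were close, and the interval of the ratio, 0.911 (0.810 to 1.02), included 1. This interval holds for scaling by the library totals only. The Kcnj10 difference, -0.12 as reported, ran from -0.35 to -0.03 under alternative processing and stayed below 0. Kcnj2 encodes Kir2.1, a strongly rectifying channel (ENSMUSG00000041695, chromosome 11, 111066164 to 111076821, plus strand). It had the lowest level of the 10 genes, with 183 reads and 1.65 FPKM in OIR, against 127 reads and 1.48 FPKM in the control. Its ratio of 1.11 (0.883 to 1.41) also had an interval that included 1. The number of Aqp4 reads per Kcnj10 read was 1.28 in OIR, against 1.62 in the control, a ratio of ratios of 0.788 (0.677 to 0.918).

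Of the 13 other inwardly rectifying channel genes, 9 reached an FPKM of 1. Of these, 7 lay below 0 and 2 above, with a median of -0.31, while 35.1% of all genes compared lay below 0. Under each alternative scaling 7 or 8 lay below 0. Kcnj9, a G protein-gated channel gene, and Kcnj12, a close relative of Kcnj2, had the lowest differences, with ratios of 0.630 (0.573 to 0.691) and 0.679 (0.586 to 0.786). Kcnj8, a channel of pericytes, was the highest at 1.71 (1.31 to 2.24). It is itself among the 8 pericyte markers listed, whose median difference was 0.66. Kcnj16, whose product pairs with Kir4.1, had 10 reads in OIR, against 6 in the control, too few for a comparison.

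Sodium pump subunits and other potassium carriers lay on both sides of 0, with 6 of 11 above and a median of 0.17. Slc12a2, a sodium, potassium and chloride cotransporter, had a ratio of 1.61 (1.49 to 1.74). The tandem-pore channel gene Kcnk1 had 0.613 (0.531 to 0.708) and the pump subunit Atp1b3 0.743 (0.704 to 0.785).

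Other aquaporins did not follow Aqp4 as a group. Of 11 listed, 5 were compared, with 3 above 0 and 2 below. Aqp3 and Aqp5, aquaporins of corneal and other surface epithelia, had ratios of 2.97 (2.67 to 3.32) and 2.71 (2.50 to 2.93). Both are themselves in the corneal marker list, whose 15 genes all lay above 0. Mip, the lens aquaporin, had 0.633 (0.620 to 0.647), beside 14 lens genes that all lay below 0, Mip among them. Aqp11 had 0.702 (0.563 to 0.875).

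The scaffold that holds the water channel and Kir4.1 in the endfoot membrane did not go 1 way. Of its 12 listed genes 8 lay above 0 and 4 below, with a median of 0.09, and the count above 0 ran between 4 and 10 under the alternative scalings. Agrn, which encodes the basement membrane proteoglycan agrin, had 63.7 FPKM in OIR, against 29.1 in the control, a ratio of 2.19 (2.09 to 2.29). Dmd, the dystrophin gene, had a ratio of 1.45 (1.37 to 1.54) and Dag1, which encodes dystroglycan, 1.36 (1.28 to 1.45). Sntb1, a syntrophin gene, and Mlc1, which encodes a glial membrane protein, had the lowest differences, with ratios of 0.800 (0.706 to 0.907) and 0.887 (0.811 to 0.970).

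**Figure D2:**
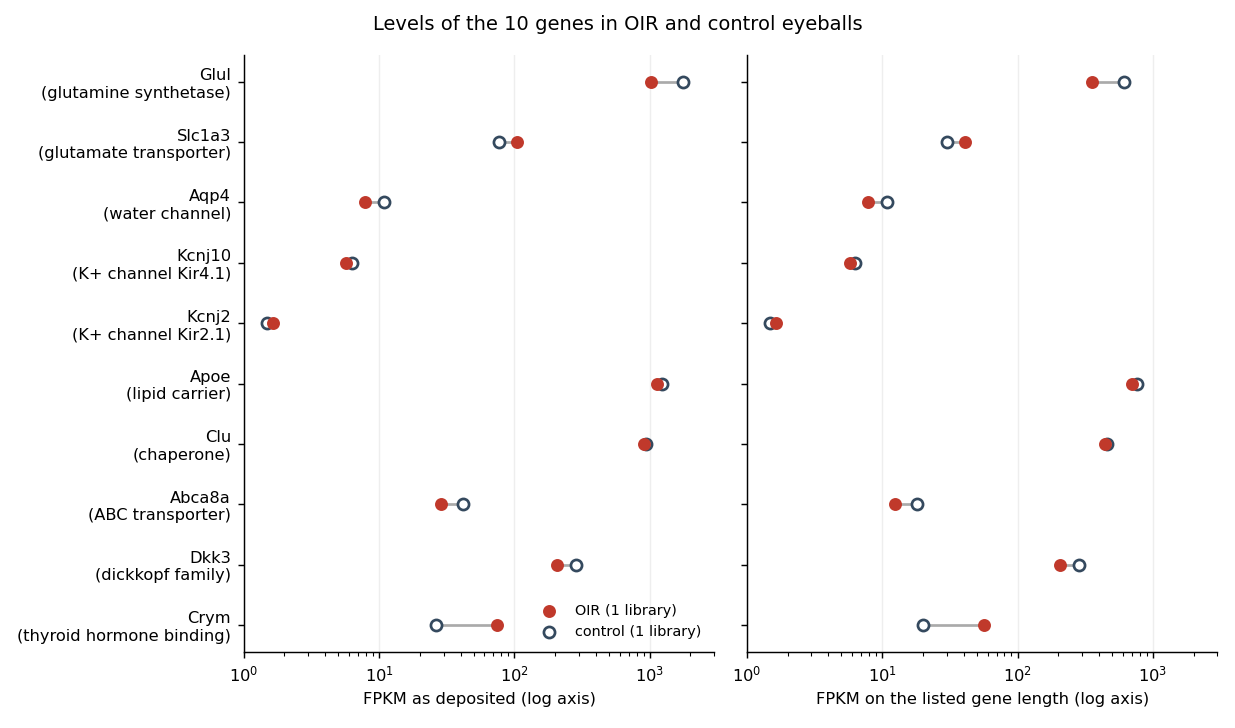
FPKM of each of the 10 genes in the OIR library (filled) and the control library (open) is plotted on a log axis, as deposited on the left and recomputed from the read counts on the listed gene length on the right. The genes run from 1.48 FPKM (Kcnj2, control) to 1753 FPKM (Glul, control) as deposited; on the listed length Glul stands at 353 FPKM in OIR, against 609 in the control.

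The lipid carrier gene Apoe and the chaperone gene Clu differed little between the libraries. Apoe encodes apolipoprotein E, a lipid carrier made by Müller glia, astrocytes and macrophages (ENSMUSG00000002985, chromosome 7, 19696109 to 19699166, minus strand). It had 19836 reads and 1127 FPKM in OIR, against 16735 reads and 1230.5 FPKM in the control. Its ratio was 0.916 (0.897 to 0.935). Clu encodes clusterin, a secreted chaperone also found in apolipoprotein particles (ENSMUSG00000022037, chromosome 14, 65968483 to 65981548, plus strand). It had 16475 reads and 910.4 FPKM in OIR, against 13135 reads and 939.7 FPKM in the control, a ratio of 0.969 (0.947 to 0.991). Both intervals leave out 1. Among the 10 members the interval lay below 1 for 6 and above 1 for 2, while it lay below 1 for 14.7% and above 1 for 36.7% of all genes compared.

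Lipoprotein handling genes beside them were mostly above 0. Of 21 listed, 17 were compared and 16 of these lay above 0, while 64.9% of all genes compared did. The median was 0.34. Between 12 and 16 lay above 0 under the alternative scalings, and none was 2-fold apart. Abca1, which encodes the pump that loads lipid onto apolipoproteins, had 11.2 FPKM in OIR, against 6.37 in the control, a ratio of 1.76 (1.59 to 1.95). Lpl, the lipoprotein lipase gene, had the lowest value, at 0.901 (0.796 to 1.02), and Apod, at 1.00 (0.842 to 1.19), stood at its control level.

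Abca8a and Dkk3, markers of Müller glia in mouse retina, were both lower in OIR. Abca8a belongs to the A subfamily of ABC transporters, which mostly move lipids (ENSMUSG00000041828, chromosome 11, 110025634 to 110095978, minus strand). It had 1413 reads and 28.5 FPKM in OIR, against 1612 reads and 42.0 FPKM in the control, a ratio of 0.677 (0.630 to 0.728). Its neighbour and close copy Abca8b went the other way, with 480 reads in OIR, against 262 in the control and a ratio of 1.42 (1.21 to 1.65). The 50-base words of the Abca8a coding transcript that also occur in Abca8b were 105 of 5570, so some reads could fall to either gene. With the reads of both genes summed the ratio was 0.780 (0.732 to 0.832). Abca5, Abca6 and Abca9, of the same gene cluster, had ratios of 1.27, 1.07 and 1.09, and the intervals of Abca6 and Abca9 included 1.

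Dkk3 encodes a secreted protein of the dickkopf family, whose other members block Wnt signalling (ENSMUSG00000030772, chromosome 7, 112116019 to 112159057, minus strand). It had 14126 reads and 206 FPKM in OIR, against 15059 reads and 285 FPKM in the control. The ratio was 0.725 (0.708 to 0.741). Of 8 other dickkopf genes and Wnt coreceptors listed, 5 were compared and all 5 lay above 0, as did 64.9% of all genes compared. Without the filter, 7 of the 8 lay above 0. Dkk1, below an FPKM of 1 in both libraries, had 22 reads in OIR, against 33 in the control. Its ratio was 0.515 (0.286 to 0.910). Kremen2 reached an FPKM of 1 in OIR only. Dkk1 and Kremen2 are named after their values were seen. Kremen1, a dickkopf receptor, had a ratio of 2.12 (1.91 to 2.34), Lrp5 1.77 (1.53 to 2.04) and Lrp6, like Lrp5 a Wnt coreceptor, 1.27 (1.18 to 1.37). The interval of Dkk2, at 1.02, included 1, and Dkk2 lay below 0 on 7 of the alternative scalings.

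Among the 10 genes, Glul, Abca8a, Dkk3 and Aqp4 had ratios between 0.580 and 0.725. Within these, Abca8a, Dkk3 and Aqp4 could not be separated at this depth: the ratio of ratios of Abca8a to Dkk3 was 0.934 (0.866 to 1.01), of Aqp4 to Abca8a 1.06 (0.939 to 1.20) and of Aqp4 to Dkk3 0.990 (0.896 to 1.09). With Glul on top the ratio of ratios lay below 1 against each of them, at 0.857 (0.795 to 0.923) against Abca8a, 0.800 (0.777 to 0.824) against Dkk3 and 0.808 (0.732 to 0.892) against Aqp4. Over all 45 pairs of members, the interval left out 1 in 36 and included it in 9. These intervals cover counting error only. The like count for pairs of other genes was not made, so these numbers do not set the members apart. Some lists of other cell types and tissues also had medians below 0. These were -0.50 for lens, -0.56 for ciliary body, -0.48 for ganglion cells and -0.20 for bipolar cells. The medians of the other cell type lists lay above 0, from 0.02 (astrocytes) to 1.39 (erythrocytes). The part of these cells in the values of Glul, Abca8a, Dkk3 and Aqp4 was not tested.

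Crym differed most. It encodes mu-crystallin, a cytosolic protein that binds thyroid hormone and is also a ketimine reductase (ENSMUSG00000030905, chromosome 7, 120186380 to 120202111, minus strand). It had 3106 reads and 75.0 FPKM in OIR, against 840 reads and 26.3 FPKM in the control. The OIR level was the higher one, with a ratio of 2.86 (2.65 to 3.09) and a difference of 1.48, and 0.951% of all genes compared had a higher difference. Crym was also the only one of the 10 that the authors' deposited table marks as up, with a log2 fold change of 1.37 there. For Glul the authors' deposited table gives a log2 fold change of -0.93 and no mark. Corneal epithelium markers, whose median difference was 1.35, and erythrocyte markers, at 1.39 over 5 genes, had differences of like size, and their part in the Crym value was not tested.

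Genes of thyroid hormone transport, conversion and response did not go with Crym. Of 12 compared, 6 lay above 0 and 6 below, with a median of -0.07. Hr, a corepressor of the thyroid hormone receptor, had a ratio of 1.33 (1.26 to 1.40). Dio2, the deiodinase that makes active hormone, had 288 reads in OIR, against 411 in the control, a ratio of 0.541 (0.464 to 0.631). Rxrg, which encodes a partner of the receptor, had 0.635 (0.484 to 0.832).

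Other markers of Müller glia lay evenly around 0. Of 20, all compared, 10 lay above 0 and 10 below, with a median of 0.09, and 1, Sox9, was 2-fold apart. With TMM, median-of-ratios or the authors' factors, and after centring within bins of transcript length, none of the 20 was 2-fold apart, and with the 3 kinds of factor the median was -0.05. Rlbp1, a carrier of visual cycle retinoids, had 256 FPKM in OIR, against 368 in the control, a ratio of 0.698 (0.672 to 0.724). Col9a1, a collagen chain gene, was the lowest at 0.598 (0.567 to 0.631). Vim, the filament gene of Müller glia at rest and in gliosis, had a ratio of 1.14 (1.10 to 1.17). Sox9, a transcription factor of Müller glia, was the highest at 2.40 (2.12 to 2.71), with 12.9 FPKM in OIR, against 5.36 in the control, followed by S100a16 at 1.48 (1.35 to 1.61).

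Reactive gliosis genes had larger differences than these lists. All 17 lay above 0, as did 64.9% of all genes compared. Of the 17, 14 were at least 2-fold higher, and the median was 1.72. Gfap had 144 FPKM in OIR, against 43.9 in the control, a ratio of 3.28 (3.08 to 3.48). The highest were Edn2, the endothelin 2 gene, with 1081 reads in OIR against 2 in the control, and Bcl3, a regulator of NF-kappaB, with 417 reads in OIR against 12 in the control. S100a6 and Cp, with ratios of 1.12 (1.06 to 1.18) and 1.76 (1.67 to 1.86), were the lowest. At least 2-fold higher were 14 of 17 in this list and 1 of 10 homeostasis genes, against 3.07% of all genes compared. This list was chosen with earlier results of these data known, so its count is no independent contrast. Some of its genes, Edn2 among them, reached an FPKM of 1 only in OIR. Of the 15 corneal epithelium markers 12 were also at least 2-fold higher, as were all 5 erythrocyte markers compared.

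**Figure D3:**
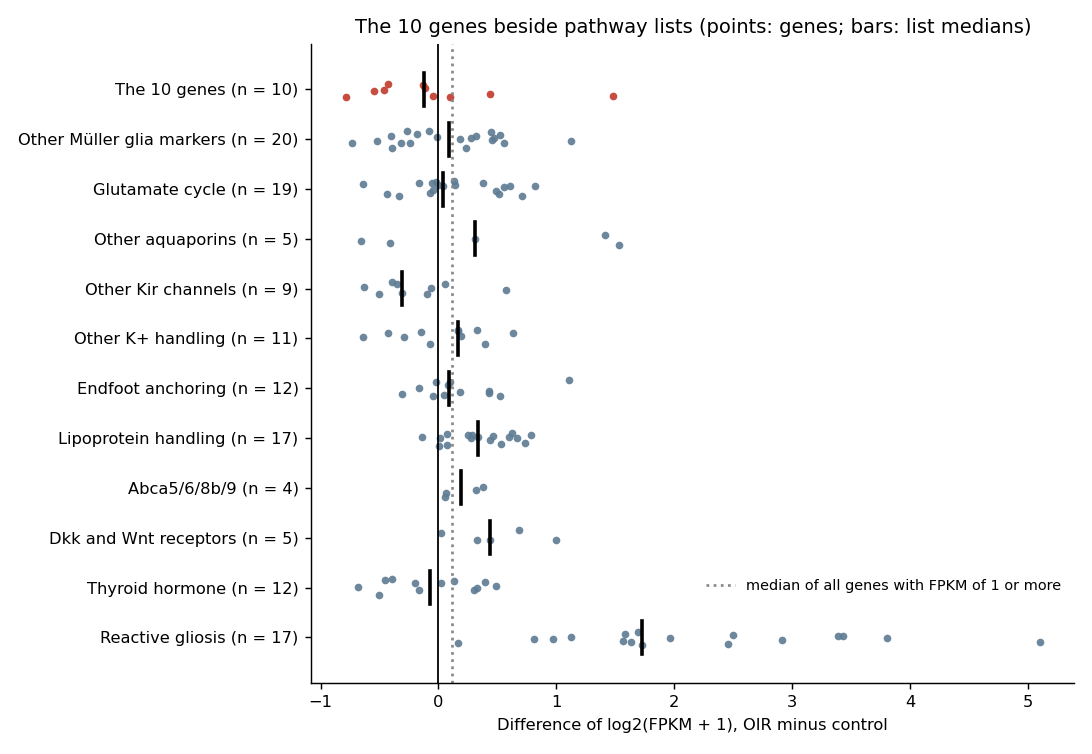
Each point is 1 gene, placed by its OIR value minus its control value of log2(FPKM + 1), for the 10 genes (red) and for 11 other lists (blue), with list medians as black bars. The 10 genes have a median of -0.12 and spread from -0.79 to 1.48, other Kir channels have the lowest median of the lists drawn, -0.31, and the reactive gliosis list the highest, 1.72; the dotted line marks 0.11, the median of all genes compared.

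The order of the levels of the 10 genes rests on the length the authors divided by. The FPKM values and read counts imply a length of 969 bases for Glul, where the table lists 2792. The value 969 is the mean over the 5 transcripts that the GENCODE M21 annotation gives for Glul, short ones included. Among 12339 genes with at least 50 reads in OIR and more than 1 annotated transcript, the implied length was within 1 base of that mean for 65.9% and within 1 base of the longest transcript for 2.03%. The ratios between libraries are not touched by this, since both libraries used the same length.

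As deposited, the order in OIR was Apoe, Glul, Clu, Dkk3, Slc1a3, Crym, Abca8a, Aqp4, Kcnj10 and Kcnj2, from 1127 to 1.65 FPKM. In the control it was Glul, Apoe, Clu, Dkk3, Slc1a3, Abca8a, Crym, Aqp4, Kcnj10 and Kcnj2, from 1753 to 1.48 FPKM. On the listed length, Apoe came first in both libraries, with 702 FPKM in OIR, against 767 in the control. Clu then stood at 446 FPKM in OIR, against 461 in the control, and Glul at 353 FPKM in OIR, against 609 in the control, so that Glul followed Clu in OIR and preceded it in the control. Crym stood at 56.8 FPKM in OIR, against 19.9 in the control on this length, above Slc1a3 in OIR (40.6 FPKM) and below it in the control (29.9 FPKM). With 1 library a group, the spread around this order was not measured.

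Reads of some members could be shared with other genes. Of the 2743 different 50-base words in the longest Glul coding transcript, 412 occur in transcripts of other genes, 309 of them in the pseudogene Glns-ps1, which had 1 read in each library. The span of Glul also overlaps Teddm2 on the other strand by 116 exon bases, and Teddm2 had 26 reads in OIR, against 17 in the control. The microRNA gene Mir8114 lies over 93 of its exon bases on the same strand and had 0 reads in both libraries. Shared words numbered 87 of 5358 for Kcnj10 and 11 of 5393 for Kcnj2. The longest coding transcripts of Slc1a3, Aqp4, Dkk3, Crym, Apoe and Clu shared no such word with another gene. Exon bases outside these transcripts were not searched. For Crym the transcript holds 1383 bases, against 3391 exon bases in GENCODE M21. Together the 10 genes took 0.394% of all reads in OIR (exact 95% interval 0.392 to 0.397) and 0.494% in the control (0.491 to 0.497). Their summed ratio of 0.798 (0.790 to 0.806) rests mainly on Glul, Dkk3, Apoe and Clu, which hold most of these reads.

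**Figure D4:**
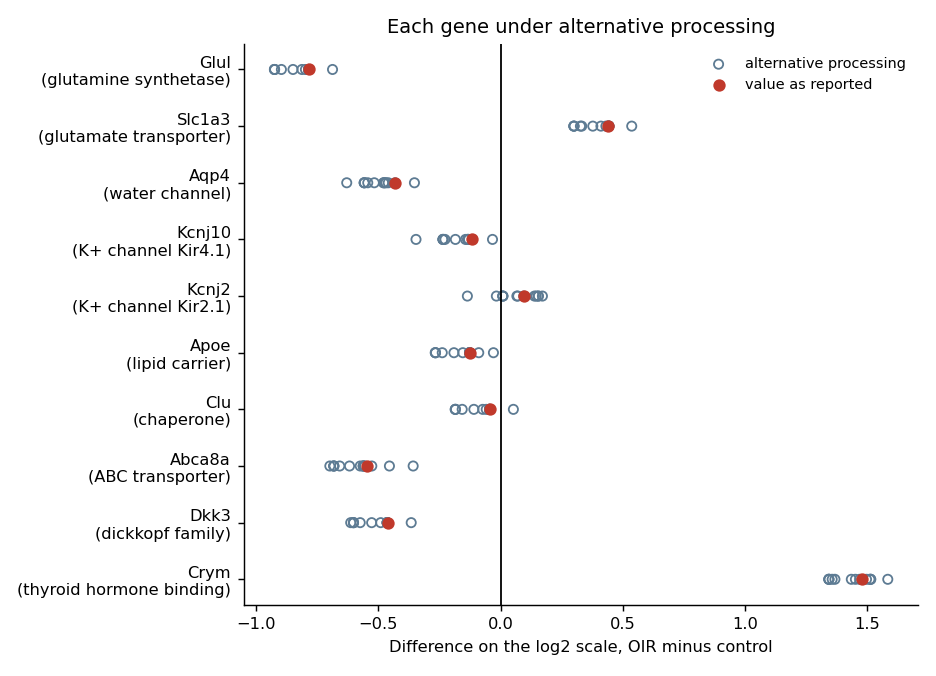
The difference between OIR and control on the log2 scale is plotted for each of the 10 genes as reported (filled) and under each alternative processing (open). Glul lies between -0.93 and -0.69 and Crym between 1.34 and 1.58 throughout, while Kcnj2 (-0.14 to 0.17) and Clu (-0.19 to 0.05) cross 0.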

How the data were processed

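RNA of whole mouse eyeballs was sequenced from 1 OIR and 1 control sample. The labels' protocol names total RNA and the NEBNext Ultra RNA kit. The submitters' processing notes name TopHat2 2.0.12 and Bowtie2 2.2.3, HTSeq 0.6.1 and the build mm10, while tool settings, annotation release and strand use are not given. Per the file headers, the deposited table holds read counts, taken as raw, and FPKM per gene. It also holds the authors' scaled signal, which is the counts divided by 1 factor per library. The authors' log2 fold change and p-values compare 1 library with 1 library, and the p-values were not used. The authors' gene length is listed in bases.

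From these, log2(FPKM + 1) in OIR minus that in the control was computed with Python 3.11.15, pandas 2.3.3 and scipy 1.17.1 for the 15883 genes that reached an FPKM of 1 in 1 of the libraries or both; the pseudocount understates differences of low genes. The 5 lines of broken-off text in the table were dropped. Ratios of read shares have exact conditional (Clopper-Pearson) 95% intervals, and pairs of genes have exact conditional intervals of the odds ratio. The reads carry no molecular identifiers and may be copies of 1 molecule, so intervals cover counting error only. The intervals were run on simulated Poisson counts, which checks their computation only and not how real reads spread. Symbols absent from the table came from GENCODE M21 by gene identifier. TMM factors came from edgeR 4.0.16, used for scaling only.

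The 10 members and the 26 other lists were chosen with earlier results of these data known. Named are the members, the 2 highest and 2 lowest genes of each pathway list, and 10 set genes; exceptions are stated, and some of these genes are not reported here. No gene is named for a pattern like that of a member, since 2 libraries give none. Alternatives covered the pseudocount, the filter, the threshold, the library scaling, centring and transcript length.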

Additional observations from a re-analysis of the deposited data

How the results depend on the processing

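Crym was the only one of the 10 genes at least 2-fold higher, and none was at least 2-fold lower, under each pseudocount, filter, scaling and centring tried. At a threshold of 1.5-fold the count of lower genes was 1 (Glul), and at 4-fold the count of higher genes was 0. Of the 10 genes, 8 kept their sign under all alternatives. Clu had a difference of 0.052 after rescaling to TPM, against -0.05 as reported, and Kcnj2 ran from -0.14 to 0.17. TMM, median-of-ratios and the authors' factors each shifted log2 ratios by -0.14, and every gene compared shifted with them. The median over the 10 genes, -0.12, was -0.23 after centring on all genes compared, -0.24 after centring within 20 bins of transcript length, and -0.25 with TMM, median-of-ratios (-0.25) or the authors' factors (-0.25). Over all 17 alternatives for the median it ran from -0.25 to -0.03, and without Crym, an alternative chosen after seeing the data like the log2 ratio with no pseudocount, the listed gene length and the reads summed with Abca8b or Glns-ps1, it was -0.13. Sox9 and Agrn were under 2-fold on some scalings. No paired analysis was possible because each group has 1 sample, and for the same reason no replicate could be left out. Among the 10 genes, Kcnj2 and Kcnj10 had the fewest reads and the widest intervals relative to their ratios.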
